A study of Homo sapiens with 3 samples.

Results

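The short arm of chromosome 19 between 10 and 20 Mb (hg19) held 260 genes that the arrays detected, of 22438 detected genes in all, and their mRNA was compared between osimertinib-resistant and parental lung cancer cells. The members are the gene names, other than those that begin with ZNF, whose probe starts within the interval and was well above background on at least 1 of 3 arrays, with the brightest probe standing for each gene. Intensities were scaled so that the 75th percentile of each array was the same, and the ratios of OR1 and OR2 to H1975 along position are the values that the interval was selected on. Those ratios are therefore given here as a description and without a test. The parental line, H1975, is an established human lung adenocarcinoma line with mutated EGFR that was not put through drug selection. OR1 and OR2 are clones obtained independently from H1975 by raising the dose of osimertinib, an inhibitor of mutant EGFR, to 2 μmol/L over 4 months, and all 3 lines were kept in the same serum-containing medium. Total RNA of each line was labeled and hybridized to 1 single-colour Agilent array, all on the same slide. With 3 arrays and no replicates the precision is limited, no p-value was computed, and the difference between a resistant line and H1975 cannot be told apart from the difference between any 2 cultures or clones.

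The short arm of chromosome 19 is among the most gene-dense stretches of the human genome, and many of its genes are used by most cells and start from GC-rich promoters. In lung cancer the interval is best known for KEAP1, which marks the antioxidant regulator NRF2 for degradation, and SMARCA4, the motor subunit of a chromatin-remodelling complex, both of which are often mutated there. An expression array reads the amount of mRNA per labeled sample, so it gives neither the number of gene copies nor the amount of protein.

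The arrays held 60901 non-control spots each, no spot was saturated, and 45.6% to 45.9% of 58200 probes were well above background. Of 448 probes in the interval, 410 were not for ZNF genes, and they stood for 342 gene names, of which 82 were below background on every array. H1975 had 242 of the 260 members well above background, OR1 had 256 and OR2 had 255, and 239 were detected in all 3 lines. Where a side of a ratio was not well above background, it was set to the lowest intensity that was, and the ratio is a bound, given as "at least" or "at most". Technical SDs of log2 ratios come from the error estimates of the scanner software. Their median over the members was 0.20 in each line, and they leave out variation between cultures. Of 10 lung epithelial markers 9 were well above background in each line, but their summed scaled intensity was 378000 in H1975 and 163000 in each of OR1 and OR2, and the surfactant gene SFTPB was below background in all 3. Leukocyte markers summed to 559 in H1975, 1340 in OR1 and 2050 in OR2, endothelial markers to between 85.9 and 108 and fibroblast markers to between 98.2 and 754, and their part in the ratios of the members was not tested.

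Promoters of members that the comparisons turn on are shown first, because they are the start sites of the most changed genes and of neighbours that went opposite ways. They run from 250 bases before to 50 after the start of the gene, 5′ to 3′ on the strand of the gene, and were taken from RefSeq on GRCh38.p14, which is not the build of the probe positions. Of the 260 members 221 were matched to a RefSeq gene and 174 had a promoter sequence. Capitals mark 3 motifs on either strand, and touching or overlapping matches run together. They are the GC box, spelled GGGCGG and bound by factors of the Sp family, the CCAAT box, spelled as its name, and the TATA box, which was searched as TATAAA and helps to set the start of transcription.
ISYNA1: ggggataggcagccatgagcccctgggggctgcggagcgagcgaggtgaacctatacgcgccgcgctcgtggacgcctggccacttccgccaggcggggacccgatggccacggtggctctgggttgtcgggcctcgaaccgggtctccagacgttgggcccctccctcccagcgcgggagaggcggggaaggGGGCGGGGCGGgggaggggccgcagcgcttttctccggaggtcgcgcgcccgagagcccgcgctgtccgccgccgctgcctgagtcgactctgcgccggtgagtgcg
CNN1: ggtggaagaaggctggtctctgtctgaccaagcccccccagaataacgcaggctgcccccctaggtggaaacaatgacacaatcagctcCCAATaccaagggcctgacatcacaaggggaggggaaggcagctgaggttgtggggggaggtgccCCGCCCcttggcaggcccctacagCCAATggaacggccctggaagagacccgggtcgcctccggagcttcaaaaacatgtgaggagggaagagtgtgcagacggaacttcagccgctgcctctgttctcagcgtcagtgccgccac
IL27RA: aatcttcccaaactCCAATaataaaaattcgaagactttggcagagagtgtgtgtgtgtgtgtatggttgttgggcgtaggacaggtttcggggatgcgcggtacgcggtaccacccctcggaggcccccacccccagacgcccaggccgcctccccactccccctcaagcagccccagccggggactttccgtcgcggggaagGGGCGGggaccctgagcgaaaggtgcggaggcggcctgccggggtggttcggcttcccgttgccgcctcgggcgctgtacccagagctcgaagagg
PALM3: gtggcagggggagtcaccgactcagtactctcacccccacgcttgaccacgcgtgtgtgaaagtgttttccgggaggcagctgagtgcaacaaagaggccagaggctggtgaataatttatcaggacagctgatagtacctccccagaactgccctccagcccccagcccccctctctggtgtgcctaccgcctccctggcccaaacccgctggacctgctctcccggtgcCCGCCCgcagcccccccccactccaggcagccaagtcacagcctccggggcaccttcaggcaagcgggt
PRDX2: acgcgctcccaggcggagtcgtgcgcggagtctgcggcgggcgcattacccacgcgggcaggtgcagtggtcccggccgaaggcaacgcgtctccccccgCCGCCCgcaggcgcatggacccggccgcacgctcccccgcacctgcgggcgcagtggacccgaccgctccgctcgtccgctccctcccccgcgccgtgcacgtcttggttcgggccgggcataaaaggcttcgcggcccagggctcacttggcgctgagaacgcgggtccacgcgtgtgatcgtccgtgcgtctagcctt
JUNB: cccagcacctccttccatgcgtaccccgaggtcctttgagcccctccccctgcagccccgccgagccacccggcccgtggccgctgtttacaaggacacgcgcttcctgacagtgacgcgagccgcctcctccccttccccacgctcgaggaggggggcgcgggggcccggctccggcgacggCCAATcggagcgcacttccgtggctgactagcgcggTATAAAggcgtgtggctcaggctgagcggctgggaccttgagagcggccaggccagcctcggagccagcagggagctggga
NOTCH3: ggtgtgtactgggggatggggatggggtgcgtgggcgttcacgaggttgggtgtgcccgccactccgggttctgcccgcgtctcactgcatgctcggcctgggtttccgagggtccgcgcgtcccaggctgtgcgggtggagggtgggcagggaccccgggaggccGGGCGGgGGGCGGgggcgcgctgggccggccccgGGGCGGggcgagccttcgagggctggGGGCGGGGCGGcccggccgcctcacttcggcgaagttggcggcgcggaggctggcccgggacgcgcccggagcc

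In these windows the GC box was found in ISYNA1, CNN1, IL27RA, PALM3, PRDX2 and NOTCH3 and the TATA box in JUNB alone. The share of members with a GC box was 79.3%, against 44.6% of all 27305 promoters in the table, and the median GC content was 66.8% against 58.3%. Members had to be detected on the arrays and the promoters of the table did not, so the sets differ in more than position. Among members with a ratio of at least 2 in both lines 27 of 30 promoters held a GC box, and among those with a ratio of at most 0.5 in both 3 of 5 did. The TATA box was rarer in the members, at 4.60% against 12%, and the CCAAT box stood at 42.0% against 35.7%. Sites for AP-1, searched as TGANTCA, were found in 4.02% of member promoters and 7.76% of all. E-boxes of the form CACGTG were found in 6.32% and 7.43%, and CArG boxes in 1.15% and 1.29%, on either strand. A match is a description of the letters and not a binding site.

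The members stood higher in both resistant lines than in H1975. The median log2 ratio of OR1 to H1975 was 0.74 over the members (quartiles 0.28 and 1.11), a ratio of 1.67, and that of OR2 was 0.54 (0.05 and 0.87), a ratio of 1.45. Over all detected genes the medians were 0.04 and -0.06. Of 254 members with a ratio in both lines, 189 (74.4%) were above 1 in both and 31 were below 1 in both, beside 37.4% and 41.9% of all genes. Of the other 34 members, 30 were above 1 in OR1 and below 1 in OR2, 4 went the other way, and none of them lay more than 2 technical SDs from 1 on both sides. Both ratios share the H1975 array, so they are not independent of each other.

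**Figure D1:**
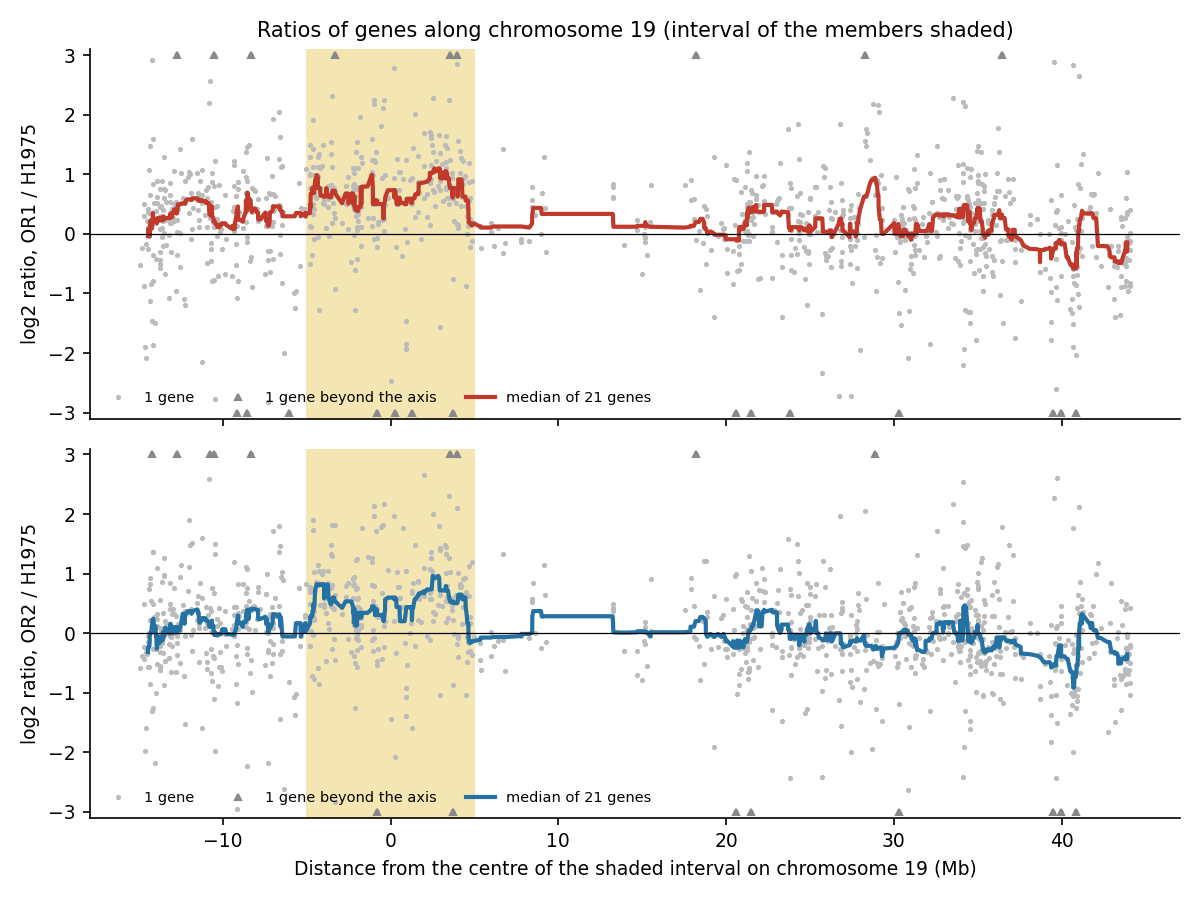
Log2 ratios of single genes other than ZNF genes (grey) and their running median over 21 genes (coloured) along chromosome 19, OR1 above and OR2 below, against the distance in Mb from the centre of the interval of the members, which is shaded. The running median peaked inside the shaded interval, at 1.1 in OR1 and 0.96 in OR2, and fell toward 0 at its right edge.

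Along the chromosome, the running median over 21 genes was highest at 17.62 Mb in OR1 (1.1, centred on SLC27A1) and at 17.52 Mb in OR2 (0.96), both inside the interval. It was lowest within the interval near its upper end, at 0.14 in OR1 (19.85 Mb) and -0.16 in OR2 (19.74 Mb). The rise was therefore not even. In windows of 1 Mb the median log2 ratio was largest from 17 to 18 Mb, at 0.98 in OR1 and 0.73 in OR2 over 29 genes, and from 10 to 11 Mb, at 0.90 and 0.69 over 33 genes. It was smallest in OR1 from 15 to 16 Mb, at 0.29 over 19 genes, where the quartiles spanned -1.19 to 1.01 and where 3 genes were up and 4 down in both lines. That window holds NOTCH3, olfactory receptor genes of the OR10H group and long noncoding RNAs between them. Every window of 1 Mb had a median above 0 in both lines, although with 7 spike-in probes as the reference 4 of the 10 windows in OR1 did not, the lowest being that from 15 to 16 Mb at -0.31.

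**Figure D2:**
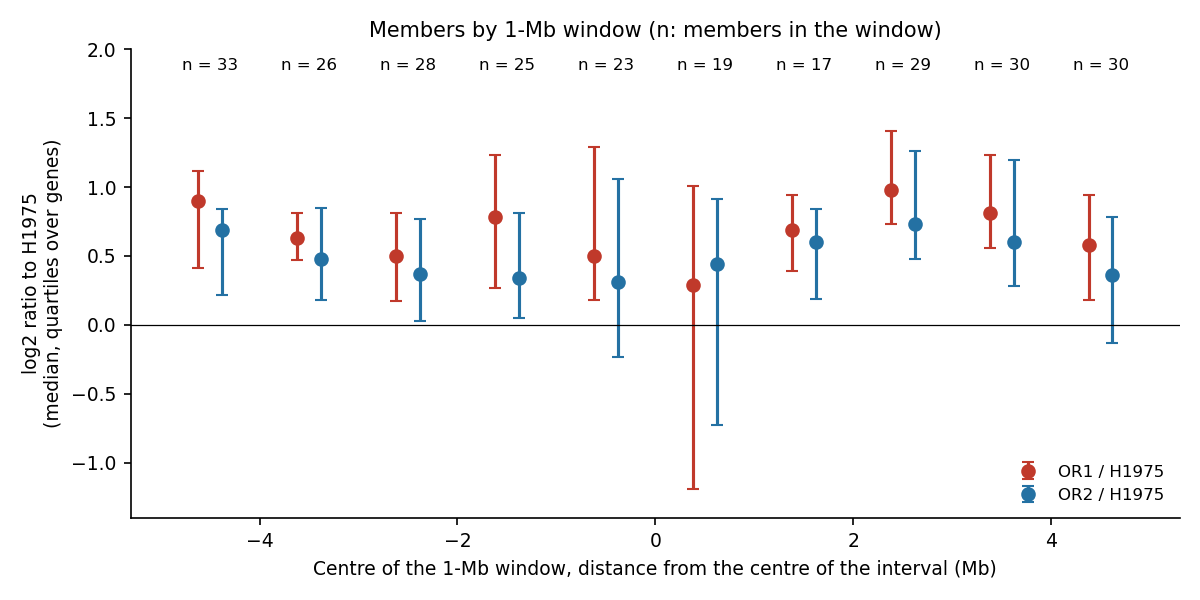
Median log2 ratio to H1975 of the members in each 1-Mb window, with bars to the quartiles over genes, for OR1 (red) and OR2 (blue) against the distance of the window from the centre of the interval. All 20 medians lay above 0 (in OR1 6 of 10 with spike-in scaling), the highest from 17 to 18 Mb, and the quartiles were widest from 15 to 16 Mb.

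The edges of the interval differed from each other. At the lower edge the first member, ANGPTL6, a secreted angiopoietin-like protein (10203256 to 10203315), had a scaled intensity of 17.9 in the parental line, 35.3 in OR1 and 29.8 in OR2, ratios of 1.97 and 1.66. At the upper edge the last member, the transcript ENST00000623416 (19946094 to 19946153), had 1380, 1560 and 1320, ratios of 1.13 and 0.957, and the nearest gene outside, lnc-ZNF682-1, had ratios of 1.09 and 0.889. On the background filter, the dimmest member was LOC100507373 with 7.22, 16.7 and 2.99, and the brightest gene left out was TM6SF2 with 12.5, 14.7 and 11.3.

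Windows of 5 Mb placed the interval within the chromosome and the genome. The log2 median was 0.64 in OR1 and 0.44 in OR2 from 10 to 15 Mb and 0.80 and 0.60 from 15 to 20 Mb. The window before, from 5 to 10 Mb, had 0.38 and 0.18, the window after, from 20 to 25 Mb, 0.15 and -0.03, and the end of the long arm from 55 to 60 Mb had -0.26 and -0.34. Among 389 windows of the genome with at least 20 genes, that from 15 to 20 Mb ranked 2 in OR1 and 4 in OR2, and that from 10 to 15 Mb ranked 5 and 16. A window on chromosome 15 from 25 to 30 Mb ranked 1 in both lines, at 1.18 and 0.84 over 41 genes. Since the interval was picked for its ratios, these ranks describe it and test nothing.

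Genes up-regulated in both lines, which means that each line reached a ratio of 2, made up 42 of the 260 members (16.2%), beside 5.09% of all genes. Down-regulated in both, at a ratio of at most 0.5, were 9 members (3.46%), beside 6.33% of all genes. Counted line by line, 79 members were up in OR1 and 11 down, beside 8.95% and 9.35% of all genes, and in OR2 55 were up and 11 down, beside 7.47% and 8.42%. Between those ratios in both lines lay 155 members. For comparison, the 266 genes of chromosome 19 below 10 Mb had log2 medians of 0.36 in OR1 and 0.12 in OR2 with 7.89% up in both, and the 665 above 20 Mb had 0.14 and -0.09 with 4.21%. The 330 genes of chromosome 3 from 20 to 60 Mb had 0.47 and 0.45 with 10.0%, and the 441 of chromosome 7 from 90 to 150 Mb had -0.80 and -0.53 with 16.8% down in both. The 30 ZNF genes inside the interval, which the rule left out, had 0.58 and 0.67, with 6 up in both and 0 down in both. These differences between segments were not tested.

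Medians were also taken over classes of probes. Members with probe GC under 45% had log2 medians of 0.70 in OR1 and 0.63 in OR2, beside 0.00 and 0.01 for all genes of that GC. From 45 to 55% they had 0.63 and 0.54 beside 0.06 and -0.09, and at 55% or more 0.78 and 0.45 beside 0.08 and -0.19. The brighter 130 members had 0.71 and 0.48, and the dimmer 130 had 0.75 and 0.61. Members with a RefSeq mRNA accession, 205 of them, had 0.78 and 0.57, the 10 with a RefSeq noncoding accession had 0.85 and 0.60, and the 45 other transcripts had 0.29 and 0.05. Of 49 further probes for 40 members, 42 gave a plain ratio in each line, and 37 (OR1) and 33 (OR2) of them lay on the same side of 1 as the brightest probe of their gene, with a median difference in log2 ratio of 0.18 and 0.19. Scaling mattered for the size in OR1. With 7 spike-in probes as the reference the log2 median of all genes in OR1 moved by -0.62, that of the members fell to 0.15, and the distance of the members above all genes was 0.73, beside 0.70 with the 75th percentile. Below, ratios and directions are given against H1975 with the 75th percentile as the reference. Small OR1 ratios turn below 1 under spike-in scaling.

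Among members above background in all 3 lines, the most up-regulated was ISYNA1, which encodes the enzyme that makes inositol phosphate from glucose phosphate. Its probe (NM_016368, 18545768 to 18545827) read 68.6 (H1975), 2546 (OR1) and 1753 (OR2) on the scaled intensity. Both resistant lines stood far above H1975, at ratios of 37.1 and 25.6 (technical SD 0.21, log2), and a further ISYNA1 probe gave 35.6 and 27.6. CERS1, a ceramide synthase, and GDF1, a ligand of the TGF-β family, are known to share a bicistronic transcript and had lower bounds only, which cannot be ranked against plain ratios. The CERS1 probe (18988719 to 18988778) read 2.69 in H1975, 168 in OR1 and 103 in OR2, at least 13.8-fold and at least 8.48-fold higher. The GDF1 probe lies 9.2 kb away and read 4.57, 87.2 and 52.3, at least 7.19 and at least 4.31. H1975 was below background for both genes, and reads of the shared transcript by the 2 probes cannot be told apart. PGPEP1, a peptidase that removes pyroglutamate from peptide ends, read 174, 830 and 855, ratios of 4.77 and 4.92, and its other probe gave at least 4.31 and at least 3.32.

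**Figure D3:**
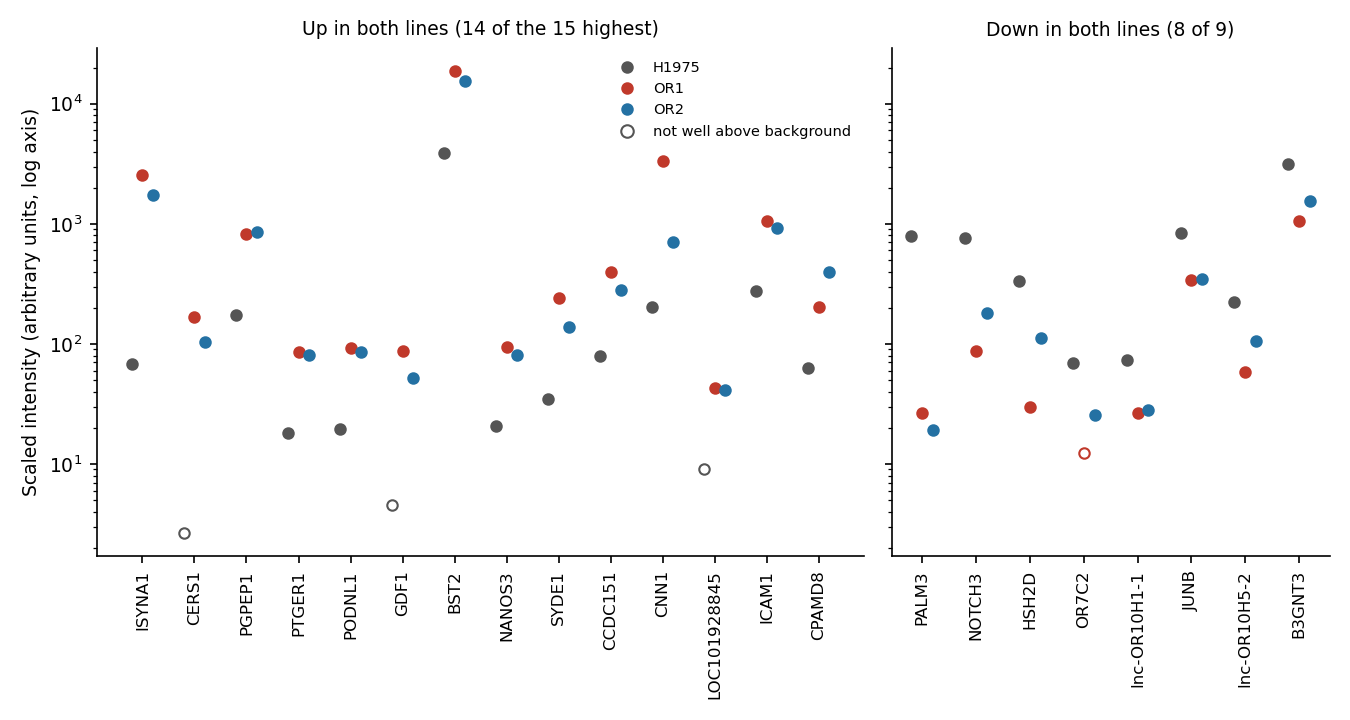
Scaled intensity on a log axis of 14 of the 15 members highest in the less changed line (left) and 8 of the 9 members down-regulated in both lines (right) in H1975 (grey), OR1 (red) and OR2 (blue), with open circles for values not well above background. Each point is 1 array. Both resistant lines lie on the same side of H1975 in every gene shown, which the choice of these genes by their ratios fixed beforehand.

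Receptors and adhesion molecules included some of the larger ratios. Of 16 such members 5 (31.2%) were up in both lines and 1, NOTCH3, was down in both, with log2 medians of 0.74 in OR1 and 0.75 in OR2. Counts of role lists, here and below, stand beside 16.2% of all members and 5.09% of all genes up in both lines. Down in both were 3.46% of all members and 6.33% of all genes. Differences between lists were not tested. BST2, or tetherin, an interferon-inducible protein that holds budding virions at the cell surface (17513748 to 17513807), read 3871 in H1975, 18790 in OR1 and 15490 in OR2, ratios of 4.85 and 4.0. A further BST2 probe gave 5.06 and 4.48. PTGER1, a receptor for prostaglandin E, was dim in H1975 at 18.0 and read 85.0 in OR1 and 80.6 in OR2, ratios of 4.73 and 4.49 with a technical SD of 0.32. The ICAM cluster near the lower edge encodes ligands of leukocyte integrins. ICAM1 (10396298 to 10396358) read 278, 1049 and 926, ratios of 3.77 and 3.33 with a technical SD of 0.07. ICAM5 read 95.8, 257 and 356, ratios of 2.68 and 3.72. ICAM4 was below background in H1975 and reached at least 2.17 and at least 1.35, while ICAM3 had 1.61 and 1.17. ICAM1, ICAM5 and ICAM3 thus stood above H1975 in both lines, with ICAM3 the least. ICAM4 does not add to this, since a lower bound is kept only where it is above 1. IL27RA, a subunit of a cytokine receptor of the interleukin family, read 389, 1009 and 1273, ratios of 2.60 and 3.27. Below 2 in both lines was LPAR2, a receptor for lysophosphatidic acid, at 0.855 and 0.809. EMR2, an adhesion G protein-coupled receptor, passed the ratio only in OR2, at 1.53 and 2.09.

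Genes of the cytoskeleton and of vesicle traffic gave 8 up in both of 21 members (38.1%, beside 16.2% of all members). None was down in both, beside 3.46% of all members, and the log2 medians were 0.91 and 0.83. CNN1, a calponin that binds actin in smooth muscle (11661005 to 11661064), read 203 in H1975, 3311 in OR1 and 711 in OR2, ratios of 16.3 and 3.51. OR1 was therefore well above OR2, which was itself above H1975. SYDE1, a GTPase-activating protein, read 35.1, 243 and 137, ratios of 6.92 and 3.91. Endocytic and secretory genes were also among them. EPS15L1, a clathrin-coat adaptor, read 172, 694 and 481, ratios of 4.04 and 2.80, and FCHO1, which starts clathrin-coated pits, read 2051, 6451 and 7143, ratios of 3.15 and 3.48. The secretory-vesicle GTPases RAB3A and RAB3D both passed the ratio, RAB3A at 3.12 and 2.51 and RAB3D at 2.92 and 2.78. AP1M1 and AP1M2 encode alternative subunits of a Golgi adaptor, the first in most cells and the second in epithelia. AP1M1 stood at 2.73 in OR1 and 1.78 in OR2, and AP1M2 at 0.970 and 0.664. TPM4, a tropomyosin, had 1.44 and 1.12.

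**Figure D4:**
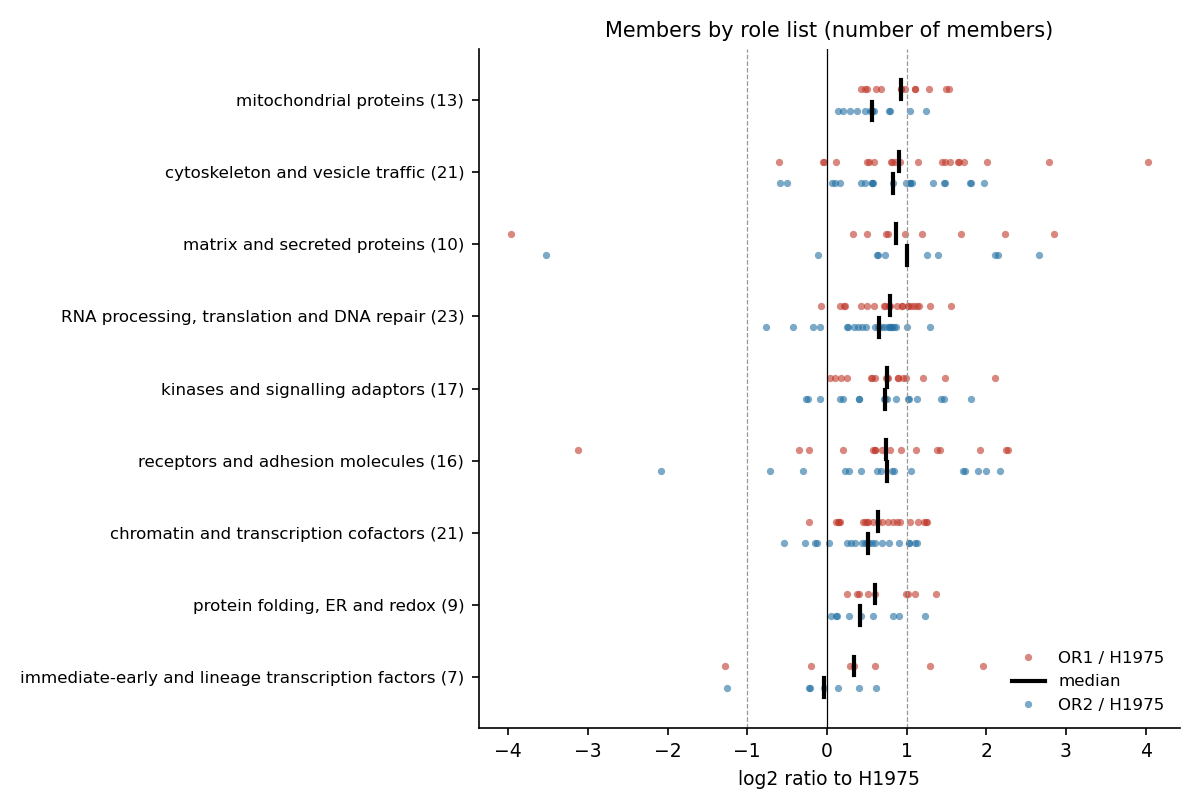
Log2 ratio to H1975 of each member in 9 role lists, OR1 in red and OR2 in blue, with black bars for the median of each list and dashed lines at the ratios of 2 and 0.5. Medians ran from 0.34 (OR1) and -0.04 (OR2) for immediate-early and lineage transcription factors to 0.93 in OR1 for mitochondrial proteins and 1.0 in OR2 for matrix and secreted proteins.

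Among 17 kinases and signalling adaptors 3 were up in both lines (17.6%, beside 16.2% of all members), 3 more in OR2 only and 0 were down. The medians were 0.75 and 0.73. PIK3R2, a regulatory subunit of phosphoinositide kinase, read 13060, 30240 and 26420, ratios of 2.32 and 2.02, and MAST3, a microtubule-associated kinase, had 2.81 and 2.78. The interval holds a pair of Janus kinases, which carry signals from cytokine receptors. JAK3 read 856 in H1975, 1588 in OR1 and 2301 in OR2, ratios of 1.86 and 2.69, and TYK2 read 302, 600 and 617, ratios of 1.99 and 2.04. Both were higher in OR2 and OR1 than in H1975, and by brightest probe each passed the ratio in OR2 only. The other JAK3 probe was below background in H1975 and gave at least 1.66 and at least 1.74. CDKN2D, an inhibitor of cyclin-dependent kinases, had 1.95 and 2.20, and PRKACA, the catalytic subunit of protein kinase A, had 1.48 and 1.32.

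Matrix and secreted proteins were fewer, with 3 of 10 up in both lines (30.0%, beside 16.2% of all members) and 1 down in both. The medians were 0.87 and 1.0. PODNL1, a leucine-rich extracellular protein, read 19.5, 92.2 and 86.2, ratios of 4.73 and 4.42, and CPAMD8, of the complement and macroglobulin family, read 62.7, 202 and 396, ratios of 3.22 and 6.32. CPAMD8 was thus the higher in OR2. GDF15, a cytokine released under cell stress, read 1814, 2568 and 4340, ratios of 1.42 and 2.39, and INSL3, an insulin-like peptide, had 1.67 and 2.64. COMP, a cartilage matrix protein, was below background in H1975 and had at least 1.70 and at least 1.56.

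Chromatin and transcription cofactors gave 3 up in both of 21 (14.3%, beside 16.2% of all members), with 0 down and medians of 0.64 and 0.51. SIN3B, a corepressor scaffold, had 2.20 and 2.14, and RFXANK, a regulator of MHC class II genes, 2.33 and 1.87. SMARCA4 (11172673 to 11172732) read 16590 in H1975, 25870 in OR1 and 21110 in OR2, ratios of 1.56 and 1.27, and DNMT1, which copies DNA methylation at replication, read 1268, 1371 and 1296, ratios of 1.08 and 1.02. In OR1 SMARCA4 was the median member of the list and DNMT1 lay under it, and in OR2 both lay under it. PBX4, a homeobox gene, passed in OR2 only, at 1.83 and 2.18.

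Transcription factors of the immediate-early and lineage kind had the lowest medians, 0.34 in OR1 and -0.04 in OR2 over 7 members, and under spike-in scaling these turned to -0.26 and 0.03. JUNB, a subunit of AP-1 that is induced within minutes of a growth signal (12902998 to 12903057), read 831 in H1975, 344 in OR1 and 349 in OR2, ratios of 0.414 and 0.420. JUND, another AP-1 subunit, had 1.53 in each line, and KLF2, a factor of resting endothelium and lymphocytes, had 1.22 and 0.860. NFIX (13186372 to 13186431) read 62.2, 242 and 82.2, ratios of 3.88 and 1.32, and LYL1, a factor of blood cell precursors, read 30.3, 74.6 and 33.4, ratios of 2.46 and 1.1. Both passed the ratio in OR1 only.

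Genes of basic cell functions had medians above 0 and few large ratios. All 13 mitochondrial members were above 1 in both lines, beside 74.4% of all members with a ratio in both. Their medians were 0.93 and 0.57, and under spike-in scaling 10 of them were above 1 in both. GCDH, which breaks down lysine, had 2.90 and 2.37, GTPBP3, which modifies mitochondrial tRNA, had 2.82 and 2.06, and NDUFA13, a subunit of the first respiratory complex, had 1.34 and 1.1. All 9 members for protein folding and redox were also above 1 in both (5 of them under spike-in scaling), with medians of 0.61 and 0.42. PRDX2, a peroxidase, read 1954, 5051 and 4580, ratios of 2.59 and 2.34. KEAP1 (10597262 to 10597321) read 1738 in H1975, 3445 in OR1 and 3088 in OR2, ratios of 1.98 and 1.78 with a technical SD of 0.07, so it lay just below the ratio of 2 in OR1. CALR, a calcium-binding chaperone, had 1.31 and 1.03. Of 23 genes for RNA processing, translation and DNA repair, 2 were up in both (8.7%, beside 16.2% of all members). Up in OR1 only were 6 more and 0 were down, with medians of 0.79 and 0.65. DDX49, an RNA helicase, had 2.95 and 2.00, KRI1, a ribosome assembly factor, 2.46 and 1.8, and UPF1, the helicase of nonsense-mediated decay, 1.12 and 0.883.

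Members outside the role lists numbered 123, of which 15 (12.2%) were up in both and 6 (4.88%) down in both, beside 16.2% and 3.46% of all members. CCDC151, which anchors dynein arms in motile cilia, read 80.0, 396 and 282, ratios of 4.95 and 3.52. NANOS3, an RNA-binding protein of germ cells, was dim in H1975 at 20.6 and read 94.1 and 80.9, ratios of 4.56 and 3.92. The noncoding LOC101928845 was below background in H1975 and had at least 3.51 and at least 3.43. Of the 42 up-regulated members, 3 ratios were such lower bounds.

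The 9 down-regulated members included PALM3, the largest change in OR2 among members above background in all 3 lines. This gene of the membrane-bound paralemmin family (14164179 to 14164238), read 792 in H1975, 26.6 in OR1 and 19.3 in OR2, ratios of 0.0336 and 0.0244 with technical SDs of 0.25 and 0.29. Its dimmer probe fell below background in both lines, at most 0.154 and at most 0.145. NOTCH3, a Notch receptor (15270489 to 15270548), read 765, 87.7 and 180, ratios of 0.115 and 0.236. In PALM3 and NOTCH3 both resistant lines were far below H1975, in NOTCH3 OR1 the lower. HSH2D, an adaptor of blood cells, read 333, 30.0 and 111, ratios of 0.0900 and 0.333, but a further probe gave 0.617 and 0.658 and did not pass the ratio. B3GNT3, a glycosyltransferase that extends O-linked sugars, read 3158, 1065 and 1539, ratios of 0.337 and 0.488. The olfactory receptor OR7C2 and the noncoding lnc-OR10H1-1 and lnc-OR10H5-2 lay between at most 0.181 and 0.363 in OR1 and between 0.368 and 0.478 in OR2. UCA1, a noncoding RNA named after its values were seen, lies close to lnc-OR10H1-1 and lnc-OR10H5-2. Its probe is at 15946035 to 15946092 and that of lnc-OR10H1-1 at 15945664 to 15945723. Whether the probes of these 2 noncoding transcripts read UCA1 was not looked up. UCA1 read 68100, 18940 and 35800, ratios of 0.278 and 0.526, and so missed the ratio in OR2. Its other probe passed in both lines at 0.157 and 0.289.

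Some opposite changes stood side by side. Among pairs of members next to each other by probe position, 8 were both up, 1 both down and 5 went opposite ways, where each member of the pair was up or down in both lines. How many such pairs the shares of calls alone would give was not worked out. The opposite pairs include OR7C2 and SYDE1, with probes 172.1 kb apart, and the transcripts ENST00000589310 and lnc-OR10H5-2, with probes 1.9 kb apart. The pair both down was lnc-OR10H5-2 and lnc-OR10H1-1, close to UCA1. The probes of IL27RA and PALM3 lie 0.9 kb apart, with IL27RA at 2.60 and 3.27 and PALM3 at 0.0336 and 0.0244. Their promoters, printed above, lie farther apart on opposite strands. On GRCh38.p14 that of IL27RA is at 14031512 to 14031811 and that of PALM3 at 14062027 to 14062326. The probes of JUNB and PRDX2 lie 8.9 kb apart, with JUNB at 0.414 and 0.420 and PRDX2 at 2.59 and 2.34. The probes of FCHO1 and B3GNT3 lie 24.5 kb apart, with FCHO1 at 3.15 and 3.48 and B3GNT3 at 0.337 and 0.488. IL27RA and PRDX2 no longer passed the ratio in OR1 with spike-in scaling. B3GNT3 lay close to the ratio of 0.5 in OR2. Of the alternative settings for scaling and background correction, only median scaling kept it down in both lines. A pair that was both up was SSBP4 and ISYNA1, with probes 0.5 kb apart. Their ratios in OR1 were 2.36 and 37.1, which were not of similar size.

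**Figure D5:**
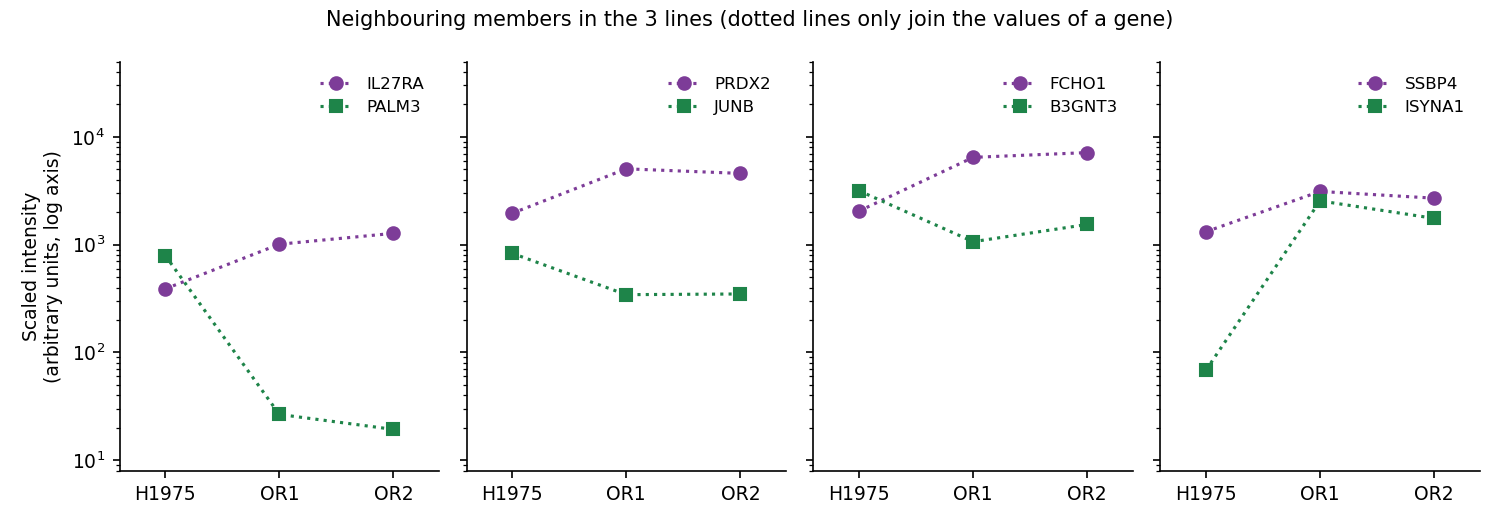
Scaled intensity on a log axis in H1975, OR1 and OR2 for 4 pairs of members next to each other, with IL27RA, PRDX2, FCHO1 and SSBP4 as circles and PALM3, JUNB, B3GNT3 and ISYNA1 as squares. In the 3 pairs from the left the circles rise and the squares fall from H1975 to both resistant lines, and in the pair at the right both rise, ISYNA1 far more than SSBP4.

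Compared directly, without the H1975 array, OR1 was above OR2 in 193 of 251 members detected in both lines (76.9%), beside 56.8% of all genes, with a median difference in log2 intensity of 0.25 (quartiles 0.01 and 0.42) beside 0.07. A difference of at least 2-fold was rare. It was reached by 5 members with OR1 higher, beside 1.9% of all genes, and by 3 with OR2 higher, beside 1.96%. Higher in OR1 were CNN1, NFIX, LYL1, SNORD105 and ACP5, the last a secreted acid phosphatase that read 9923 in H1975, 5196 in OR1 and 1396 in OR2, ratios to H1975 of 0.524 and 0.141. Higher in OR2 were HSH2D, NOTCH3 and the transcript ENST00000587451. That transcript was dim and read 15.7, 19 and 38.2, ratios of 1.21 and 2.44 with technical SDs of 0.399 and 0.345. OR2 was 2.015-fold above OR1 in it, just past the limit. The further HSH2D probe had ratios to H1975 of 0.617 and 0.658, so it showed little difference between the lines. The sign of the median depends on the scaling, and with spike-in scaling the median difference was -0.42, with OR1 above OR2 in 19 members.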

How the data were processed

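The authors deposited the output of Agilent's scanner software for each array, in which the processed intensity of a spot is corrected for background and spatial trends within the array and not scaled between arrays, with its error estimate and flags for background, saturation and outliers. Per the file headers the software was Feature Extraction 10.7.1.1, whereas the submitters' processing notes name version 9.5.1.1. The deposited table of normalized intensities, whose method is not given in the sources used here, served as an alternative.

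Control and outlier spots were dropped, repeated spots of a probe were averaged as log2, each array was scaled on its 75th percentile, and the brightest probe with a flag for well above background on at least 1 array stood for each gene name. A probe had that flag on an array where most of its spots did. Scaled intensities were multiplied back to the mean level of the arrays and compare lines and not genes. A technical SD was propagated from the error estimates of both spots. Ratios of 2 and 0.5 follow the methods of the study. The interval, its members, the 9 role lists and the 63 named genes were chosen with earlier results of these data known. The named genes were the 15 highest of the members up in both lines and all that were down, the 3 with the largest difference between OR1 and OR2 each way, 24 widely studied genes, the genes at the edges and up to 2 per role list that passed in 1 line only. Others were named as family members or neighbours, after their values were seen, and some genes are not reported here. Probe coordinates are those of the files (hg19), and whether a probe lies in an exon or an untranslated end was not looked up, since no genome of that build was used. Members were matched to RefSeq by accession (211), symbol (9) or synonym (1). The medians and counts were tested on simulated data. The alternatives were 16 settings for scaling, background correction, filter, probe choice and ratio, of which the last 2 (ratios less the median of all genes, or less their trend with probe GC) were added after seeing the data. Python 3.11.15, numpy 2.4.6, pandas 2.3.3, matplotlib 3.10.9, R 4.3.3 and limma 3.58.1 were used.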

Additional observations from a re-analysis of the deposited data

How the results depend on the processing

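The members stood above all genes under every setting that gave a median, by 0.49 to 0.77 on the log2 scale in OR1 and by 0.44 to 0.62 in OR2, and no call turned to the opposite direction. The size of the medians and the counts of calls moved more. Scaling on 7 spike-in probes moved the median of all genes in OR1 by -0.62 and left a median of 0.15 for the members in OR1, with 21 members up in both lines, 23 up and 18 down in OR1, and 72.4% of the calls in both lines up instead of 82.4%. Without scaling, which moved all genes by -0.19 in OR1, the median of the members in OR1 was 0.55, and with median scaling all genes moved by -0.11. Normexp background correction with an offset of 50 gave 24 up and 5 down in both lines, 30 up and 6 down in OR2, medians of 0.53 in OR1 and 0.43 in OR2, and 0.49 and 0.48 above all genes. Without the background filter 14 members were down in both and 20 down in OR2, the medians were 0.59 and 0.41, and they stood 0.53 and 0.44 above all genes, over 342 gene names. By construction, a ratio of 4 left 7 up and 3 down in both, 14 up and 5 down in OR1 and 8 up and 4 down in OR2, and a ratio of 1.5 gave 106 up and 14 down in both, 152 up in OR1, 118 up and 17 down in OR2. The cause of the other shifts was not tested. Of the 42 members up in both, 15 stayed so under all 7 settings of scaling and background correction, among them ABHD8, BST2, CCDC151, CERS1, CNN1, CPAMD8, DDA1, EPS15L1, FCHO1, ICAM1, ISYNA1, PGPEP1, SYDE1 and USE1, and of the 9 down 5 did, among them HSH2D, JUNB, NOTCH3 and PALM3. For the named genes 1344 of 1490 values under the alternatives stayed within 1 technical SD, and of the 146 others 62 came from spike-in scaling and 51 from normexp. Some settings change these values little by construction. All values stayed with outlier spots kept (126), RefSeq mRNA accessions only (116) and the filter on all 3 arrays (114). The technical SD is also wide for some bounds, such as 1.46 for CERS1. No paired analysis was possible because each line had 1 array. Dim genes limit the rest, since 18 members were not above background in H1975.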

Other observations

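Small nucleolar RNAs guide the chemical modification of ribosomal RNA and are cut from introns of host genes, and 4 of them were among the members. SNORD105B read 874 in H1975, 2460 in OR1 and 1502 in OR2, ratios of 2.82 and 1.72, and SNORD105 read 33.3, 81.6 and 38.8, ratios of 2.45 and 1.17. Their host PPAN, a ribosome assembly factor, had 2.02 and 1.61. SNORA68 read 97.3, 250 and 159, ratios of 2.57 and 1.63. In all of these OR1 stood above OR2 and both above H1975. SNORD41 had 1.33 and 1.32. Array probes do not tell a small RNA from the intron of its host.

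Cytochromes of the CYP4F group oxidize fatty acids and eicosanoids. CYP4F8 read 32.2 in H1975, 61.3 in OR1 and 109 in OR2, ratios of 1.90 and 3.39, and CYP4F12 was above background in OR2 alone, at 41.3, with a ratio there of at least 3.40. SLC44A2, a choline transporter near the lower edge of the interval, read 2082, 857 and 1147, ratios of 0.411 and 0.551, and its other probe gave 0.418 and 0.524. CACNA1A, the pore of a neuronal calcium channel, read 42.9, 98.1 and 145, ratios of 2.29 and 3.39. These genes were chosen after their values were seen.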
